A study of Mus musculus with 18 samples.

Results

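The genes described here are 3 fibroblast growth factor (FGF) ligands, Fgf4, Fgf8 and Fgf15, and 7 genes that extracellular signal-regulated kinase (ERK) induces and that mostly restrain it, namely the dual-specificity phosphatases Dusp9, Dusp6 and Dusp4, the Sprouty genes Spry2 and Spry4, and the transcription factors Etv4 and Etv5. They were chosen by symbol, and all 10 of 10 were found among the 20703 genes measured. Dusp9 was picked for the lowest KO versus WT log2 fold change of all genes on a variance stabilized scale at days 0 and 2. The KO versus WT values of those 2 days are thus given for the 10 genes as a description, without a test. RNA was sequenced in 18 libraries from E14 mouse embryonic stem cells (mESCs). WT cells carried a 3×Flag tag knocked into Nsd1, the gene of a histone H3 lysine 36 methyltransferase, and KO cells were made from the same tagged cells by deleting exon 5 of Nsd1 with CRISPR-Cas9. The KO group held 2 lines, KO-1 and KO-2, and each line is a single clone. Cells were grown on mouse embryonic fibroblast feeders with leukemia inhibitory factor (LIF) at day 0 and sampled again on day 2 and day 4 after both were withdrawn, when they differentiated as a monolayer on gelatin.

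FGF4 is the main FGF that mESCs secrete, and it acts on the same cells through FGF receptors, RAS, RAF, MEK and ERK to prepare them for leaving pluripotency. ERK switches on its own brakes: DUSP6, DUSP9 and DUSP4 remove phosphate from ERK in the cytoplasm or the nucleus, and Sprouty proteins act further upstream, at the level of RAS and RAF. ETV4 and ETV5 are ETS factors that FGF signaling induces. In the gastrulating embryo Fgf8 is made in the primitive streak, whereas Fgf4 is best known in the inner cell mass and epiblast.

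Every day had 2 WT libraries and 4 KO libraries, 2 from each clone, labelled as biological replicates. The total was between 9309874 and 23921193 counts on genes per library, and both WT day 2 libraries were shallow, with 9309874 and 9356867. Levels are given as normalized counts, which are counts divided by the size factor of the library. Differences are log2 fold changes of the variance stabilized values (VST), which understate the change of weakly expressed genes, so the ratio of mean normalized counts is given beside them. A gene was called when the adjusted p was under 0.01 and the absolute log2 fold change over 0.58 in limma. In bulk RNA, fewer cells that express a gene and less RNA per cell cannot be told apart.

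Nsd1, the deleted gene, followed the labels. Its normalized counts were 3374 and 3659.9 in WT at day 0, against 837 and 711 in KO-1 and 689 and 635 in KO-2. The lowest WT library of the series, on day 4, had 2111, and the highest KO library, also on day 4, had 1103, so the groups did not overlap. Counts cover the whole gene, so exon 5 itself was not measured apart.

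Promoter windows were matched by symbol in a RefSeq table (GRCm38.p6, 250 bases before to 50 after the start) for 4 of the 10 genes, Fgf4, Dusp6, Spry2 and Etv5. The 100 bases before the start are shown for the 3 of them that behaved differently over time, as in WT Fgf4 fell at both steps, Dusp6 rose at both steps and Spry2 fell at the first step. Capitals mark matches to CCAAT or TATATA on either strand, motifs that were chosen after the windows had been seen.
Fgf4, chr7:144861286-144861385, plus strand: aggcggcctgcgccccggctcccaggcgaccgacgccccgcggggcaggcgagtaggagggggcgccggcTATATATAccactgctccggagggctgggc
Dusp6, chr10:99263131-99263230, plus strand: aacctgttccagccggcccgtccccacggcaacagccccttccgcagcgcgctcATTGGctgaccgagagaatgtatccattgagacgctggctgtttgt
Spry2, chr14:105896820-105896919, minus strand: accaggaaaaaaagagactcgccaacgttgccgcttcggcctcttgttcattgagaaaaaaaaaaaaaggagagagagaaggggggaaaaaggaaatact

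The Fgf4 stretch began its TATATA matches 30 and 28 bases before the start, and these overlap each other. Dusp6 held CCAAT on the reverse strand, as ATTGG, from 46 bases before the start, and Spry2 held neither motif in the 100 bases. G and C made up 76% of the bases for Fgf4, 61% for Dusp6 and 43% for Spry2. Of all 32851 windows of 300 bases in the table, 37.4% held CCAAT and 5.67% held TATATA. The ETS motifs CCGGAAGT and AGGAAGT, which share the letters GGAAGT, were in 3.89% and 9.35% of all windows, and the octamer ATGCAAAT was in 1.74%. Among the 5 windows of the 4 genes, AGGAAGT was in 1, of Etv5, CCAAT was in 4, of Fgf4, Dusp6 and both windows of Etv5, TATATA was in 1, of Fgf4, and CCGGAAGT and ATGCAAAT were in 0.

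**Figure D1:**
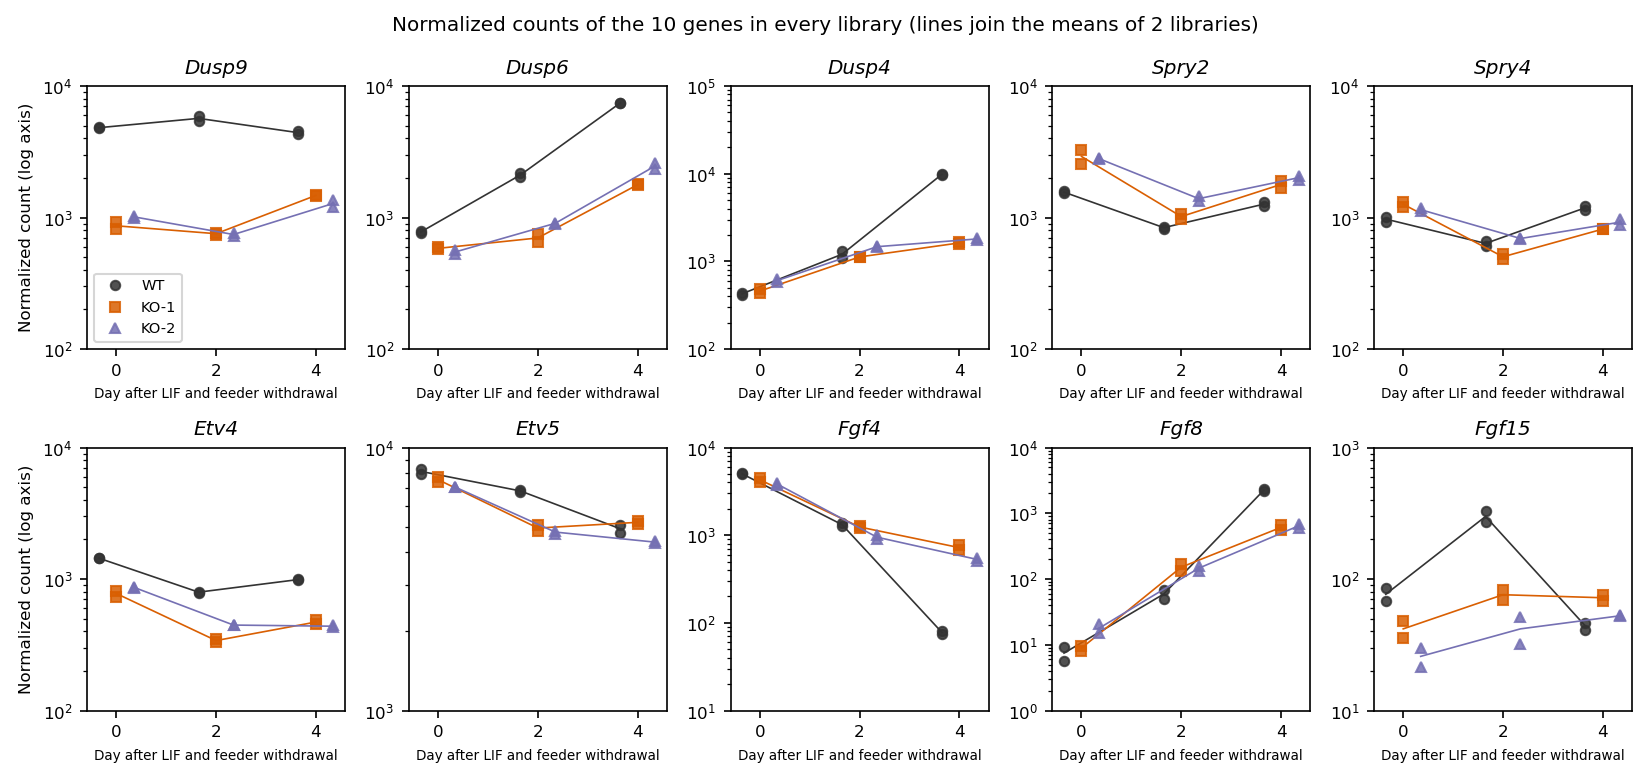
Normalized counts (log axis) of each of the 10 genes against the day after LIF and feeder withdrawal, with 1 point per library (black circles WT, orange squares KO-1, purple triangles KO-2, shifted sideways for clarity) and lines through the means of the 2 libraries of a line and day. Dusp9 was apart at every day, Dusp4 was apart at day 4 only, and the WT and KO levels of Fgf4 and Fgf8 crossed.

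Dusp9, an X-linked phosphatase that acts on ERK, was high in WT throughout and low in both clones throughout. At day 0 its normalized counts were 4775 and 4864 in WT, 919 and 812 in KO-1, and 997 and 1028 in KO-2. The gene lies on the plus strand of the X chromosome, at chrX:73639419-73643514 in GRCm38. The mean was 5.13-fold lower in KO (939 ± 96.5, SD, n = 4) than in WT (4819 ± 63.3, SD, n = 2), with a log2 fold change of −1.84 ± 0.07 (SE). The next lowest gene at day 0, Pecam1, had a log2 fold change of −1.79. At day 2 WT had 5459 and 5888, KO-1 had 767 and 740.0 and KO-2 had 757 and 729. This was a 7.58-fold lower mean in KO and a log2 fold change of −2.25 ± 0.07 (SE), followed by Fgf5 at −1.97. The 4 KO libraries of day 2 thus lay between 729 and 767, and the groups did not overlap at either day.

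At day 4, which the choice of Dusp9 did not use, KO was below WT again, and whether the difference changed between days was not tested. WT libraries had 4510.2 and 4323, KO-1 libraries 1451 and 1495, and KO-2 libraries 1366 and 1195. The mean was 3.21-fold lower in KO, with a log2 fold change of −1.35 ± 0.07 (SE) and an adjusted p of 1.43e-12 in limma. It ranked 134 from the lowest of 20703 genes, against rank 1 at the other days. The steps over time draw on the day 0 and day 2 levels that took part in the choice of Dusp9 and are given as a description, without a test. WT had log2 fold changes of 0.21 ± 0.08 (SE) from day 0 to day 2 and −0.32 ± 0.08 (SE) from day 2 to day 4. In KO the level went from 748 ± 17 to 1377 ± 133 (SD, n = 4) between day 2 and day 4, 1.84-fold, with a log2 fold change of 0.58 ± 0.06 (SE) on the VST scale and 0.88 ± 0.08 (SE) by limma-voom on the counts recovered from the VST values. Ordered by mean, the groups ran WT day 2, WT day 0, WT day 4, KO day 4, KO day 0 and KO day 2, and no 2 neighbours in that order shared any part of their ranges.

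The log2 fold change of Dusp9 between the 2 clones was under the fold threshold at each day. As a description without a test, KO-1 minus KO-2 was −0.15 ± 0.06 at day 0 and 0.01 ± 0.06 at day 2 (SE). At day 4 it was 0.15 ± 0.06 (SE, adjusted p = 0.115 in limma).

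The genes whose VST values followed Dusp9 most closely over the 18 libraries, among 10227 others with a mean normalized count of at least 100, were Ttc7 (Pearson's r = 0.974), Coro2a (0.967), M6pr (0.965), Gbe1 (0.950) and Ivns1abp (0.950). Ttc7 went from a mean of 208 in WT to 53.3 in KO at day 0, and from 245 to 50.7 at day 2. The size of the difference varied among these genes, as a correlation does not measure it. At day 0 Coro2a went from 160 to 41.4 and Gbe1 from 202 to 68.0, but M6pr only from 3371 to 2477 and Ivns1abp from 3495 to 1800. These values describe a difference between genotypes that the 18 libraries share, and the libraries of one clone are not independent cell lines.

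**Figure D2:**
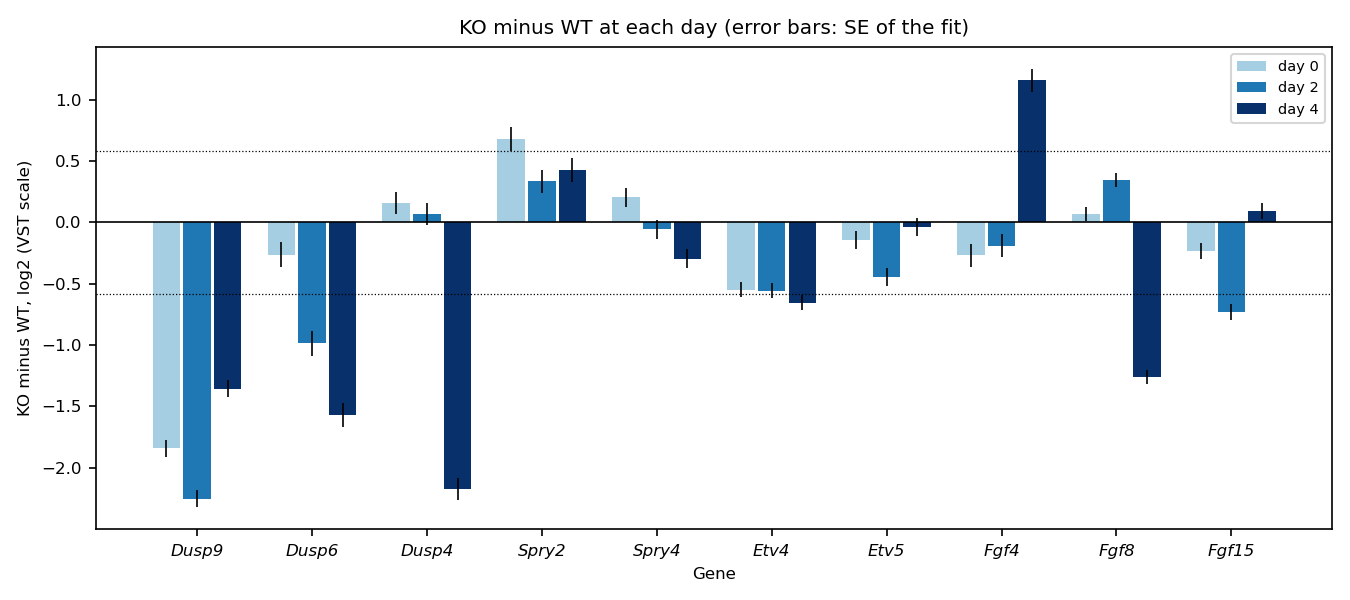
Log2 fold change of KO minus WT on the VST scale for each of the 10 genes at day 0, 2 and 4 (light to dark bars), with the SE of the fit as error bars and dotted lines at the fold threshold of 0.58 in both directions. Dusp9 was lower at all 3 days, Dusp4 and Fgf8 passed the lower line at day 4 only, and Fgf4 passed the upper line at day 4 only.

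Dusp6, which encodes the cytoplasmic ERK phosphatase, rose in WT at both steps and reached a lower level in KO. WT libraries had 788 and 762 normalized counts at day 0, 2170.5 and 2042 at day 2, and 7389 and 7449 at day 4. KO libraries lay between 531 and 594 at day 0 and between 651 and 907 at day 2. At day 4 KO-1 had 1784 and 1769.5 and KO-2 had 2598 and 2334, all below the WT libraries of day 4 and on both sides of the WT libraries of day 2. The WT rise was 2.72-fold from day 0 to day 2 (log2 fold change 1.01 ± 0.12, SE, adjusted p = 6.52e-07 in limma) and 3.52-fold from day 2 to day 4 (1.57 ± 0.12, adjusted p = 7.58e-10). KO went from a mean of 566 to 802 in the first step, short of the fold threshold (0.29 ± 0.08, adjusted p = 0.00843 in limma), and rose 2.65-fold in the second (0.98 ± 0.08, adjusted p = 1.81e-08).

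In the KO versus WT comparison Dusp6 had log2 fold changes of −0.26 ± 0.10 at day 0 and −0.99 ± 0.10 at day 2 (SE). At day 4 it was 3.50-fold lower in KO, with −1.57 ± 0.10 (SE) and an adjusted p of 5.64e-11 in limma. The clones differed in Dusp6 at day 4 in the direction of a lower level in KO-1, by −0.37 ± 0.06 (SE, adjusted p = 4.3e-04 in limma), a difference under the fold threshold and smaller than that between either clone and WT.

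Dusp4, a nuclear phosphatase of the same family, had the lowest KO versus WT log2 fold change of the 10 genes at day 4. At day 0 the 2 WT libraries had 416 and 440.2 normalized counts and the KO libraries 435 to 626, and at day 2 WT had 1089 and 1324 and KO 1115 to 1499.6, so the genotypes overlapped at both days. At day 4 WT had 9909 and 9768, while KO-1 had 1584 and 1664 and KO-2 had 1751 and 1854. Every KO library of day 4 was thus above all libraries of day 2 but far below WT.

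From day 0 to day 2 Dusp4 rose 2.82-fold in WT (log2 fold change 0.89 ± 0.10, SE, adjusted p = 9.35e-07 in limma) and 2.44-fold in KO (0.80 ± 0.07, adjusted p = 2.99e-08). From day 2 to day 4 it rose 8.16-fold in WT (2.54 ± 0.10, adjusted p = 6.65e-14) and had a 1.32-fold higher mean in KO, under the fold threshold (0.30 ± 0.07, adjusted p = 0.00475). At day 4 it was 5.74-fold lower in KO, with −2.18 ± 0.09 (SE) and an adjusted p of 6.33e-14 in limma, rank 29 from the lowest of all genes. The day 4 comparisons share the WT day 4 libraries with the WT time course. Whether the time course itself differed between genotypes was not tested for the 10 genes.

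Spry2, an inhibitor upstream of RAF, was higher in every KO library than in WT at each of the 3 days. WT libraries had 1541 and 1578 normalized counts at day 0, and KO libraries had 3287 and 2539 in KO-1 and 2828 and 2782 in KO-2. The mean at day 0 was 1.83-fold higher in KO (log2 fold change 0.68 ± 0.10, SE). It fell from day 0 to day 2 in both genotypes, 1.86-fold in WT (−0.61 ± 0.11, SE, adjusted p = 1.69e-04 in limma) and 2.37-fold in KO (−0.96 ± 0.08, adjusted p = 5.67e-09). At day 4 the KO libraries lay between 1672 and 2080.3 and the WT libraries at 1308 and 1218, without overlap, and the difference of 0.43 ± 0.10 (SE, adjusted p = 0.00116 in limma) was under the fold threshold.

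Spry4 changed sides. KO libraries had 1113 to 1320.1 normalized counts at day 0 against 1015 and 932 in WT, 482 to 697 at day 2 against 663 and 608, and 816 to 970.2 at day 4 against 1145 and 1230.0. The log2 fold changes of KO versus WT were 0.21 ± 0.08, −0.06 ± 0.08 and −0.30 ± 0.08 (SE), and the last of these, with an adjusted p of 0.00395 in limma, was under the fold threshold. From day 0 to day 2 Spry4 fell 2.02-fold in KO (−0.64 ± 0.06, adjusted p = 7.9e-08 in limma), a call that was lost with KO-2 alone as KO (−0.46), and WT had −0.38 ± 0.09 (adjusted p = 0.00195). The WT mean of day 4 was 1.87-fold that of day 2, with 0.57 ± 0.09 (adjusted p = 2.65e-05 in limma), just short of the fold threshold. This step was called by limma-voom (0.91) and after centring on the median (0.58). It was also called without replicate 1 of WT day 2 or of WT day 4 (0.60 for each).

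Etv4 was lower in KO at each day. WT libraries had 1448 and 1434 normalized counts at day 0, 802 and 788 at day 2, and 998 and 984 at day 4. KO libraries lay between 736 and 876 at day 0, between 329.6 and 448 at day 2, and between 431 and 487 at day 4, below WT each time. The mean was 1.76-fold lower in KO at day 0 and 2.02-fold lower at day 2, with log2 fold changes of −0.55 ± 0.06 and −0.56 ± 0.06 (SE). At day 4 it was 2.18-fold lower and passed the test, with −0.65 ± 0.06 (SE, adjusted p = 2.44e-08 in limma). From day 0 to day 2 Etv4 fell 2.09-fold in KO (−0.59 ± 0.05, SE, adjusted p = 1.16e-08 in limma), a call that was lost without either library of KO-2 at day 0 or either library of KO-1 at day 2. The WT change over the same step, −0.58 ± 0.07 (SE, adjusted p = 1.86e-06), fell just short of the fold threshold.

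Etv5 was called in none of the comparisons that were tested, in limma, and in 1 of them, from day 0 to day 2 in KO, by limma-voom. WT libraries had 7931 and 8305 normalized counts at day 0, 6876 and 6801 at day 2, and 5086 and 4738 at day 4. KO libraries lay between 7057 and 7695 at day 0, between 4709 and 5055 at day 2, and between 4341 and 5268 at day 4, so they were below WT at day 0 and day 2 and on both sides of it at day 4. Log2 fold changes of KO versus WT were −0.14 ± 0.07, −0.45 ± 0.07 and −0.04 ± 0.07 (SE), the last with an adjusted p of 0.735 in limma. The widest of its changes between days was −0.53 ± 0.06 (SE, adjusted p = 4.18e-07 in limma) from day 0 to day 2 in KO.

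Fgf4, the autocrine FGF of mESCs, fell at both steps in WT and at the first step in KO. WT libraries had 5065 and 4929 normalized counts at day 0, 1362 and 1276 at day 2, and 74.5 and 81.5 at day 4. KO-1 had 4527 and 4055 at day 0, 1205 and 1277 at day 2, and 672 and 771 at day 4. KO-2 had 3746 and 3909, then 896 and 1001, then 546 and 514. All KO libraries of day 0 were below WT, at day 2 the highest of them, of KO-1, was level with the lower WT library, and at day 4 all of them were far above WT.

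The fall of Fgf4 from day 0 to day 2 was 3.79-fold in WT (log2 fold change −1.55 ± 0.11, SE, adjusted p = 6.12e-10 in limma) and 3.71-fold in KO (−1.48 ± 0.08, adjusted p = 5.66e-12). From day 2 to day 4 it fell a further 16.9-fold in WT (−1.85 ± 0.11, adjusted p = 2.19e-11), and KO had a 1.75-fold lower mean that was under the threshold (−0.50 ± 0.08, adjusted p = 4.81e-05). Limma-voom called that KO step as well, at −0.80 ± 0.12 (SE, adjusted p = 4.44e-05). At day 4 the mean was 8.03-fold higher in KO (1.16 ± 0.09, SE, adjusted p = 2.53e-09 in limma). The VST scale compresses this difference, which was 2.97 ± 0.27 (SE) by limma-voom.

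Fgf8, the ligand of the primitive streak, rose over the same days. WT libraries had 9.23 and 5.75 normalized counts at day 0, 50.5 and 68.1 at day 2, and 2153 and 2307 at day 4. KO libraries had 8.19 to 20.6 at day 0, 134 to 169 at day 2, and 549 to 679 at day 4. KO was thus above WT at day 2 and below it at day 4, without overlap at either day. The WT rise of 37.6-fold from day 2 to day 4 had a log2 fold change of 2.51 ± 0.07 (SE) and an adjusted p of 3.94e-17 in limma. From day 0 to day 2 WT went up 7.92-fold, which was 0.39 ± 0.07 in limma (SE, adjusted p = 7.25e-05) and under the fold threshold on the compressed VST scale, and limma-voom called this step at 2.86 ± 0.57 (SE, adjusted p = 5.26e-04). In KO Fgf8 rose 11.1-fold from day 0 to day 2 (0.67 ± 0.05, SE, adjusted p = 4.73e-10 in limma) and 4.21-fold from day 2 to day 4 (0.91 ± 0.05, adjusted p = 2e-11). Whether the steps differed between genotypes was not tested. The mean at day 2 was 2.51-fold higher in KO, with a log2 fold change of 0.35 ± 0.06 (SE). At day 4 it was 3.56-fold lower in KO (−1.26 ± 0.06, SE, adjusted p = 2.54e-13 in limma). Patterns close to that of Fgf8 over the 18 libraries were seen in Pcdh18 (Pearson's r = 0.989), Cited1 (0.986), Synpo2l (0.986) and Amot (0.985), which also stood higher in WT than in KO at day 4.

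Fgf15, the mouse counterpart of human FGF19, had its highest WT level at day 2, and neither step was called in KO. WT libraries had 85.5 and 67.6 normalized counts at day 0, 329 and 269 at day 2, and 41.3 and 46.7 at day 4. KO-1 had 35.3 and 48.3, then 82.9 and 69.1, then 75.5 and 68.6. KO-2 had 30.2 and 21.5, then 32.0 and 51.6, then 53.2 and 52.0. All KO libraries were below WT at day 0 and day 2 and above it at day 4. The WT rise to day 2 was 3.91-fold (log2 fold change 0.64 ± 0.08, SE, adjusted p = 9.89e-07 in limma), a call that was lost without replicate 1 of WT day 2 (0.58, just under the threshold), and the fall to day 4 was 6.80-fold (−0.80 ± 0.08, adjusted p = 2.83e-08). KO had 0.14 ± 0.05 and 0.02 ± 0.05 over these steps (SE, adjusted p of 0.0438 and 0.811 in limma). At day 2 the mean was 5.08-fold lower in KO (−0.73 ± 0.07, SE), and the day 4 difference of 0.10 ± 0.07 (SE) had an adjusted p of 0.277 in limma. In GENCODE M21, 761 bases of Fgf15 exons lie opposite the antisense gene Gm26793, and reads from the 2 strands cannot be told apart where counting did not use strand. On chromosome 7 of GRCm38, Fgf4 (chr7:144847367-144865243) and Fgf15 (chr7:144896531-144900953) are neighbours on the plus strand.

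**Figure D3:**
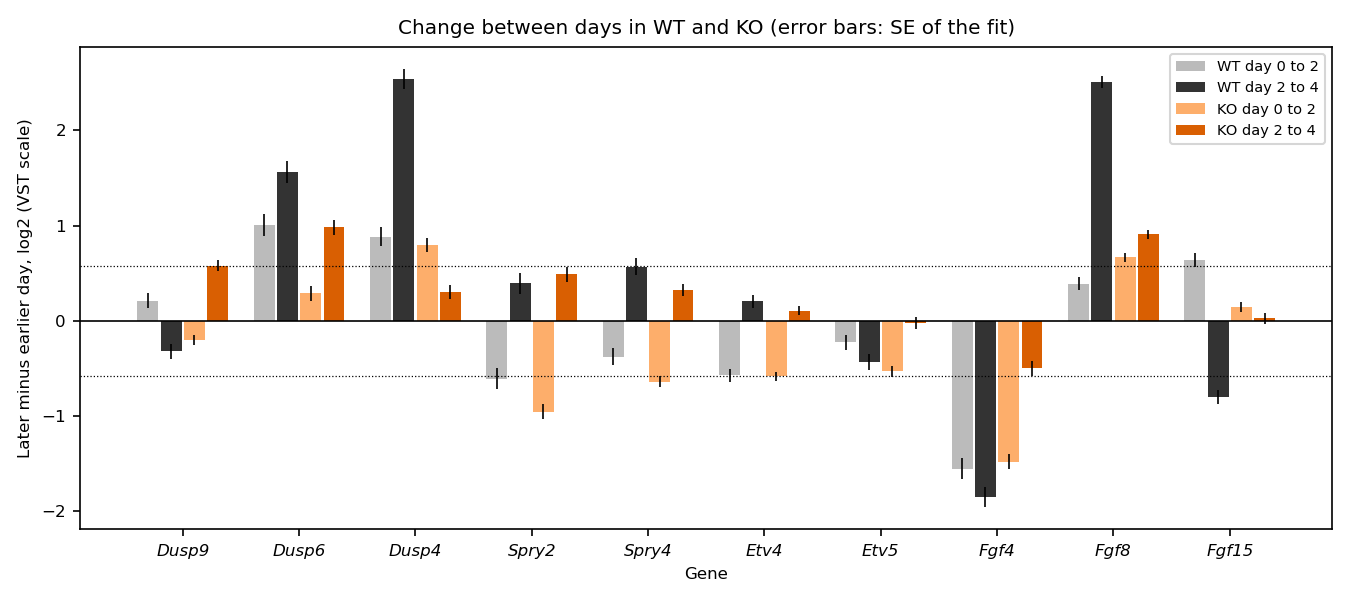
Log2 fold change between successive days on the VST scale for each of the 10 genes, in WT (grey day 0 to 2, black day 2 to 4) and KO (light and dark orange), with the SE of the fit as error bars and dotted lines at the fold threshold of 0.58. The WT bars of Dusp4, Dusp6 and Fgf8 from day 2 to day 4 reached 2.54, 1.57 and 2.51, and the KO bars reached 0.30, 0.98 and 0.91.

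Counted over the 10 genes, WT had 3 that rose from day 0 to day 2 (Dusp6, Dusp4 and Fgf15), beside 2.66% of all genes, and 2 that fell (Spry2 and Fgf4), beside 4.02%. From day 2 to day 4, 3 rose in WT (Dusp6, Dusp4 and Fgf8), beside 5.69% of all genes, and 2 fell (Fgf4 and Fgf15), beside 3.07%. In KO, 2 rose from day 0 to day 2 (Dusp4 and Fgf8), beside 1.43% of all genes, and 4 fell (Spry2, Spry4, Etv4 and Fgf4), beside 1.77%. With KO-2 alone as KO, 4 of the 10 were called over this step instead of 6, without Spry4 and Etv4. From day 2 to day 4, 2 rose in KO (Dusp6 and Fgf8), beside 0.923% of all genes, and 0 fell in limma, beside 0.565%. Downward, 1 (Fgf4) had an unadjusted p under 0.05 in limma and was called by limma-voom. In either direction these held for 33.8% and 10.3% of all genes. Both steps of a genotype share its day 2 libraries.

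Between KO and WT at day 4, 1 of the 10 genes was higher (Fgf4), beside 3.67% of all genes, and 5 were lower (Dusp9, Dusp6, Dusp4, Etv4 and Fgf8), beside 3.91%. The median log2 fold change of the 10 was −0.48 at that day, and that of all genes was 0.00. As a description of the values that took part in the choice, at day 0 the thresholds were passed upward by Spry2, beside 1.73% of all genes, and downward by Dusp9, beside 0.879%. At day 2 they were passed by 0 genes upward, beside 4.01% of all genes, and downward by Dusp9, Dusp6 and Fgf15, beside 2.37%. The KO and WT ranges stayed apart in 8 of the 10 genes at the first day, 7 at the second and 9 at the last, whereas this held for 47.4%, 57.5% and 49.8% of all genes. None of the 10 was called between KO-1 and KO-2, where 0.0290%, 0.0435% and 0.251% of all genes were called at day 0, 2 and 4. Limma-voom called 0 as well, beside 0.159%, 0.232% and 2.23% of all genes, and 3, 7 and 4 of the 10 had an unadjusted p under 0.05 in limma, beside 14.8%, 12.3% and 25.3% of all genes.

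Per kilobase of exon (GENCODE M21), the most abundant of the 10 in WT at day 0 were Etv5 with 1979 normalized counts per kilobase, Dusp9 with 1771 and Fgf4 with 1564, and the least abundant was Fgf8 with 5.55. In WT at day 4 the order was led by Dusp4 with 3591, Dusp6 with 2369, Fgf8 with 1652 and Dusp9 with 1622 per kilobase, the last 2 within their spread of each other. In KO at day 4 it was led by Etv5 with 1165 and Spry2 with 909 per kilobase, and Dusp6, Dusp4, Dusp9 and Fgf8 followed at 677, 625, 506 and 464.

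Marker genes of the cell types that the cultures could hold moved with several of these values. The 8 mESC markers summed to between 83657 and 89433 normalized counts in the 6 libraries of day 0, with none at 0. Behind these sums, 4 (Sox2, Zfp42, Esrrb and Klf4) were above WT in every KO library and 4 (Pou5f1, Nanog, Dppa5a and Tdgf1) were below. At day 4 they summed to 17726 and 18344 in WT, with Tdgf1 as the most abundant, and to between 22926 and 24273 in KO, with Sox2 or Dppa5a as the most abundant and none at 0 in either. Every KO library was above both WT libraries in 6 of these 8 at that day and below them in 2, Pou5f1 and Tdgf1. The formative epiblast markers summed to 10223 and 9666 in WT and 19943 to 23968 in KO at that day, with Dnmt3b the most abundant and none at 0. Dnmt3b alone was above WT in every KO library, 3 of the 5 (Fgf5, Pou3f1 and Lef1) were below WT in every one, and Otx2 overlapped, so the sum followed Dnmt3b and not the list. Fgf4 was also higher in KO at that day, and the part of such cells in it was not tested. Those of primitive streak and mesoderm, which do not include Fgf8, summed to 35231 and 34469 in WT at day 4, with T as the most abundant and none at 0, and to between 353 and 888 in KO, where Msgn1 in all 4 and Mesp1 in 3 of the libraries were at 0 and Eomes was the most abundant. The same KO libraries had lower Fgf8, Dusp4 and Dusp6 than WT, and the part of these cells in that result was not tested. The 6 endoderm markers summed to 1327 and 1331 in WT at day 4, with Gata4 the most abundant and none at 0, and to between 80.1 and 184 in KO, with Foxa2 the most abundant and Sox17 at 0 in 1 library. Of these 6, 4 were below WT in every KO library and 1, Foxa2, was above. The 4 neuroectoderm markers measured summed to 8.05 and 4.42 in WT at day 4, where Hes5 was at 0 in both and Pax6 and Sox1 in 1 each, and to between 575 and 739 in KO, with Sox1 the most abundant and Hes5 at 0 in 1 library. Their part in the day 4 differences of the 10 genes was not tested either. The 8 feeder fibroblast markers summed to 2779 and 2706 in WT and 4615 to 5449 in KO at day 0, with Col1a1 the most abundant and Lum at 0 in each of the 6 libraries and Dcn at 0 in 1 of KO-1, and their part in the higher Spry2 of KO was not tested. Of these 8, 4 were above WT in every KO library at day 0 and 4 overlapped. After feeder withdrawal these 8 summed to 1165 and 1042 in WT and 608 to 805 in KO at day 2, with Lum, Postn or Dcn at 0 in some libraries. At day 4 the feeder markers summed to 2522 and 2368 in WT and 764 to 1441 in KO, above the day 2 sums in WT. Col1a1 was the most abundant at both days, and Dcn was at 0 in 1 KO library of day 4. Their part in the day 4 values of the 10 genes was not tested. At that day 5 of the 8 were below WT in every KO library, 1, Postn, was above and 2 overlapped. At day 2 the 5 formative epiblast markers, among which Dnmt3b was the most abundant, summed to 52323 and 55237 in WT and 28487 to 31912 in KO with none at 0, and their part in the Fgf15 level of WT was not tested. One of these 5, Fgf5, is also a ligand described next.

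The other genes of the pathway were taken from 7 lists with 79 names, of which 74 were measured. Of these 74, 8 rose and 6 fell from day 0 to day 2 in WT, beside 2.66% and 4.02% of all genes, and 16 rose and 3 fell from day 2 to day 4, beside 5.69% and 3.07%. KO had 5 that rose and 2 that fell in the first step, beside 1.43% and 1.77% of all genes, and 6 that rose and 1 that fell in the second, beside 0.923% and 0.565%. Comparing KO with WT, 6 were higher and 1 lower at day 0, beside 1.73% and 0.879% of all genes. At day 2, 9 were higher and 3 lower, beside 4.01% and 2.37%, and at day 4, 9 were higher and 9 lower, beside 3.67% and 3.91%. As a share of the 74, the called genes were 18.9% and 25.7% in the WT steps, 9.46% in each KO step, and 9.46%, 16.2% and 24.3% between genotypes. The median log2 fold change of the 74 genes at day 4 was −0.01.

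Among the 7 receptor genes, 1 was called between genotypes, and at each day it was Fgfr2, beside 1.73%, 4.01% and 3.67% of all genes called higher. In WT its normalized counts were 150.1 and 169.8 at day 0, 187 and 204 at day 2, and 180.1 and 194 at day 4. In KO they were 606 to 709.8, then 1088 to 1219, then 599 to 845, so every KO library was above every WT library. The receptor was 4.10-fold, 5.87-fold and 3.71-fold higher in KO, with log2 fold changes of 0.91 ± 0.07, 1.32 ± 0.07 and 0.88 ± 0.07 (SE, adjusted p of 3.47e-09, 6.12e-12 and 1.04e-09 in limma). Fgfr1, the main receptor of the epiblast, rose 2.05-fold from day 2 to day 4 in WT (0.85 ± 0.07, adjusted p = 1.01e-08 in limma). The other 5, Fgfr3, Fgfr4, Fgfrl1, Klb and Kl, were not called by limma in any of the 7 comparisons of days and genotypes. Limma-voom called Fgfrl1 higher in KO at day 0 and day 2 and Kl lower at day 2, and it called steps over time for Fgfr3, Fgfr4 and Fgfrl1.

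Among the 11 other secreted FGFs measured, 0 were called between genotypes at day 0 (4 had an unadjusted p under 0.05 in limma, beside 39.4% of all genes, and limma-voom called 2, beside 13.3%), 1 was lower in KO at day 2, beside 2.37% of all genes, and 3 were lower at day 4, beside 3.91%. Fgf5, a marker of formative epiblast, stood at 1674 and 1467 normalized counts in the WT libraries of day 2, 216 and 140.3 in KO-1, and 39.8 and 32.7 in KO-2 (log2 fold change −1.97 ± 0.18, SE, adjusted p = 2.76e-08 in limma). At day 4 its WT libraries had 1102 and 1119, those of KO-1 631 and 663 and those of KO-2 239 and 246, and the clones differed from each other by 0.68 ± 0.07 (SE, adjusted p = 8.01e-06 in limma). Fgf10, a mesenchymal ligand, had 769.8 and 766 in WT and 77.6 to 201 in KO at day 4 (−1.14 ± 0.10, adjusted p = 7.00e-09), and Fgf3 was lower as well (−0.85 ± 0.05, adjusted p = 1.12e-11). Fgf17, a close relative of Fgf8, rose from day 2 to day 4 in WT (8.74-fold, 1.40 ± 0.08, adjusted p = 3e-11 in limma) and in KO (7.14-fold, 1.05 ± 0.06, adjusted p = 6.33e-11). It was not called between genotypes by limma, although its day 4 libraries had 948 and 914 in WT and 475 to 623 in KO. Limma-voom called 5 of the 11 ligands between genotypes at day 4, beside 23.9% of all genes.

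**Figure D4:**
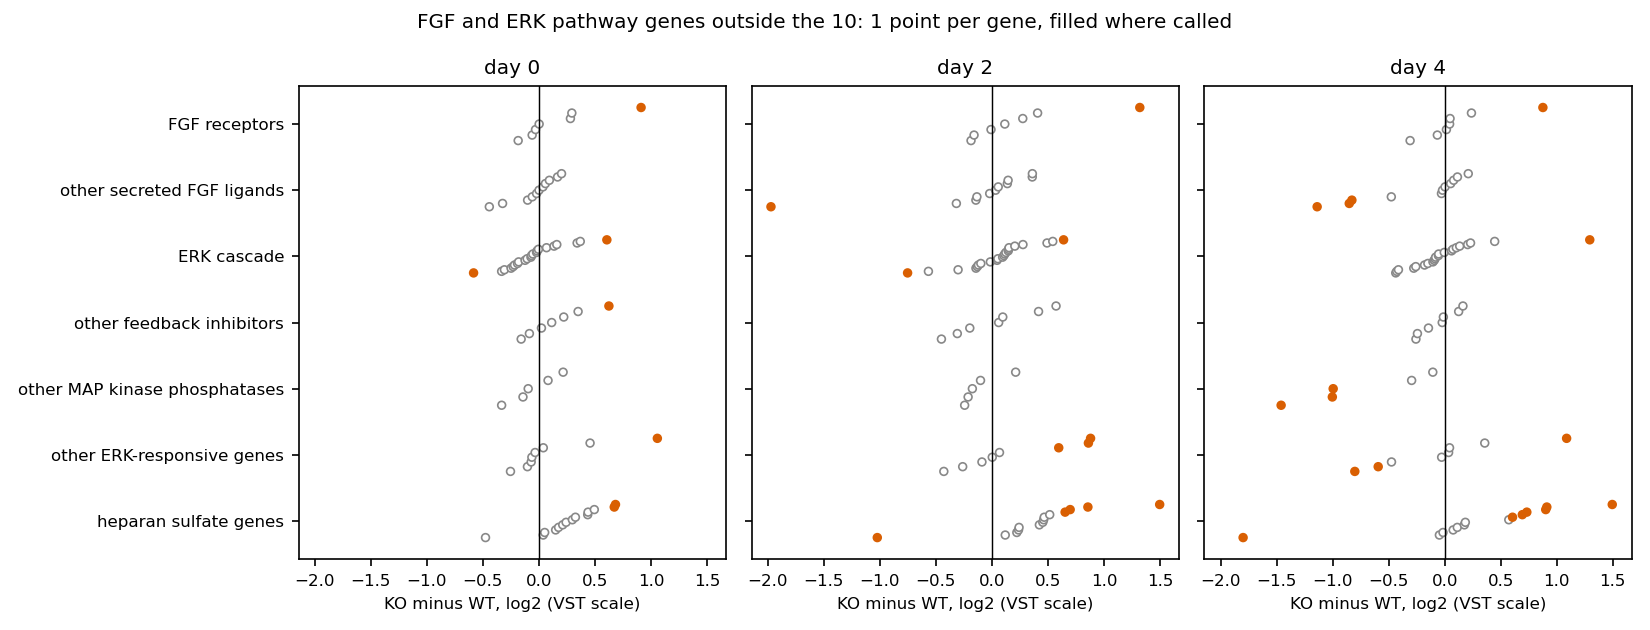
Log2 fold change of KO minus WT on the VST scale at day 0, 2 and 4 for the 74 measured genes of the 7 lists, 1 point per gene, in rows by list, filled orange where called. Of the 5 other MAP kinase phosphatases 3 were lower in KO at day 4 and 0 at day 0 and day 2, and of the 14 heparan sulfate genes 2, 4 and 6 were higher in KO at day 0, 2 and 4.

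Of the 22 genes of the ERK cascade, 1 was higher and 1 lower in KO at day 0 and again at day 2, and 1 was higher and 0 lower at day 4. Both directions together, these were 9.09%, 9.09% and 4.55% of the list, beside 1.73%, 4.01% and 3.67% of all genes called higher and 0.879%, 2.37% and 3.91% called lower. Sos2, a RAS activator, was 2.73-fold higher in KO at day 0 (0.61 ± 0.07, SE, adjusted p = 9.69e-07 in limma) and 2.45-fold higher at day 2 (0.64 ± 0.07, adjusted p = 2.07e-07). The scaffold Ksr1 was 2.88-fold lower at day 0 (−0.58 ± 0.05, adjusted p = 2.57e-08), just past the fold threshold. Gab1, an adaptor of the receptors, stood at 1646 and 1522 normalized counts in WT and 4465 to 4936 in KO at day 4, 2.99-fold higher (1.29 ± 0.09, adjusted p = 1.06e-10 in limma).

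Of the 7 other feedback inhibitors measured, 1 was called between genotypes, the receptor antagonist Il17rd, which was 1.85-fold higher in KO at day 0 (0.62 ± 0.10, SE, adjusted p = 8.16e-05 in limma), where 1.73% of all genes were called higher. Limma-voom called 2, 3 and 0 of the 7 at day 0, 2 and 4, beside 13.3%, 23.9% and 23.9% of all genes. Over time 2 rose in WT in the first step and 3 in the second, beside 2.66% and 5.69% of all genes, and 1 and 2 in KO, beside 1.43% and 0.923%. Spred3, a Sprouty relative, rose 8.59-fold in WT (1.11 ± 0.06, adjusted p = 6.06e-12 in limma) and 3.55-fold in KO (0.69 ± 0.04, adjusted p = 3.76e-11) from day 0 to day 2. From day 2 to day 4 Il17rd rose 3.02-fold in WT and 1.78-fold in KO, and the nuclear ERK phosphatase Dusp5 rose 3.27-fold in WT and 2.65-fold in KO.

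The 5 other MAP kinase phosphatases were compared at each day, and whether the days differed was not tested. None was called between genotypes at day 0 or day 2, where 2 and 3 had an unadjusted p under 0.05 in limma, beside 39.4% and 52.3% of all genes, and limma-voom called 1 and 2, beside 13.3% and 23.9%. At day 4 Dusp1, Dusp2 and Dusp10 were lower in KO, beside 3.91% of all genes. Dusp1, an immediate-early phosphatase, had 2153 and 2259 normalized counts in WT and 389 to 554 in KO (4.63-fold lower, −1.46 ± 0.06, SE, adjusted p = 1.37e-13 in limma). Dusp2 had 459 and 469.8 in WT and 51.9 to 77.7 in KO (−1.0 ± 0.05, adjusted p = 3.78e-13), and Dusp10, which acts mostly on JNK and p38, had 517 and 473 in WT and 54.7 to 88.4 in KO (−1.0 ± 0.06, adjusted p = 2.78e-11). The same 3 rose in WT from day 2 to day 4, beside 5.69% of all genes, with log2 fold changes of 1.41 ± 0.07, 0.98 ± 0.05 and 0.82 ± 0.07 (SE), and 0 of the 5 were called over that step in KO, where 2 had an unadjusted p under 0.05 in limma and limma-voom called 1, beside 33.8% and 10.3% of all genes. These 2 comparisons share the WT day 4 libraries.

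Of the 8 other ERK-responsive genes, 1 was higher in KO at day 0, beside 1.73% of all genes. At day 2, 3 were higher, beside 4.01%, and at day 4, 1 was higher and 2 were lower, beside 3.67% and 3.91%. Etv1, the third ETS factor of the Etv4 and Etv5 subfamily, was higher in KO at all 3 days, with 1343 to 1513 normalized counts at day 0 against 474 and 393 in WT, 1201 to 1851 at day 2 against 639 and 575, and 1175 to 1494 at day 4 against 362 and 404. Its log2 fold changes were 1.06 ± 0.10, 0.86 ± 0.10 and 1.09 ± 0.10 (SE, adjusted p of 7.98e-08, 4.64e-07 and 1.12e-08 in limma). Egr1, an immediate-early gene, had 5755 and 5530.2 in WT and 5105 to 5701 in KO at day 0, and 174 and 225 in WT and 598 to 851 in KO at day 2. It fell in both genotypes over that step, by 3.16 ± 0.09 on the log2 scale in WT (SE, adjusted p = 7.47e-16 in limma) and by 2.22 ± 0.06 in KO (adjusted p = 1.22e-15), and was 3.63-fold higher in KO at day 2 (0.88 ± 0.08, adjusted p = 1.78e-08). At day 4 Phlda1 and Myc were lower in KO (−0.59 ± 0.05 and −0.80 ± 0.10, adjusted p of 7.88e-09 and 1.36e-06).

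Heparan sulfate chains bind FGFs and their receptors together at the cell surface. Of the 14 genes that make, trim or carry them, 2 were higher and 0 lower in KO at day 0, 4 higher and 1 lower at day 2, and 6 higher and 1 lower at day 4. The shares of all genes called higher in these comparisons were 1.73%, 4.01% and 3.67% and lower 0.879%, 2.37% and 3.91%. Sdc4, a core protein, stood at 1691 and 1861 normalized counts in WT and 5468 to 6934 in KO at day 2, and 771 and 672 in WT and 2716 to 3275 in KO at day 4 (log2 fold changes 1.5 ± 0.09 at both days, SE, adjusted p of 5.54e-11 and 2.02e-11 in limma). Hs6st2, a sulfotransferase, was higher in KO at all 3 days, 5.28-fold at day 0 and 3.13-fold at day 4. Sulf1 and Sulf2, which remove sulfate groups from the chains, were both higher in KO at day 2 and day 4. Gpc3, a glypican, was the gene of the list that was lower, at 5727 and 5527 in WT and 1116 to 1274 in KO at day 4 (−1.80 ± 0.11, adjusted p = 4.3e-11).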

How the data were processed

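Poly-A RNA of 18 libraries was sequenced. Per the labels and methods, the authors trimmed reads with Trim Galore 0.6.7, aligned them to mm39 with STAR 2.7.11a, counted them on exons with featureCounts 2.0.6, filtered out genes with low averages, and transformed the counts with the variance stabilization of DESeq2 1.42.0. The deposited values are on a log2 scale and cover 20703 genes. No strand setting is given in the sources used here. Differences are compressed near the floor of 8.36, which stands for a count of 0, and at a normalized count near 1313 they are still well below the plain log2 ratio.

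The transformation was inverted, and 100% of the values gave whole counts within 0.05. Between 72.5% and 77.5% of the counts from 1 to 20 in a library were even, for a reason not known here. Both libraries of each line and day differed by more than counting noise, also when that noise was doubled for the even counts. KO-2 at day 0 was the closest pair, at 1.09 times the doubled noise. The widest pairs were those of KO-1 at day 4 and day 0, at 9.04 and 8.81 times.

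Limma 3.58.1 in R 4.3.3, with a trended prior variance, fitted 6 groups of genotype and day with clones pooled, and 9 groups for the comparison of the clones. P-values were adjusted by Benjamini-Hochberg over all 20703 genes. The threshold values are those in the methods of the study, but here the fold threshold of 0.58 was applied to differences of VST values. These understate fold changes, so the same number is a stricter cut here than on a plain log2 scale. Fgf4 in KO from day 2 to day 4 had −0.50 in limma, under the threshold, and −0.80 by limma-voom. Adjusted p-values come from limma on the VST values, and from limma-voom only where it is named. The p-values rest on 2 WT libraries and 4 KO libraries of 2 clones per day. The fit treated libraries of the same clone as independent, so the p-values measure the scatter between libraries and not that between cell lines. The steps were tested on simulated counts, drawn with a fixed spread that was not estimated from the libraries. Genes with a mean normalized count of at least 100 were changed for KO versus WT at day 4. The rule called 1 of 50 genes changed 1.5-fold, 21 of 50 changed 2-fold and 46 of 50 changed 4-fold. It called 0 of 20503 unchanged genes. A gene that was not called can thus still have changed, also by 2-fold.

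The 10 genes, the pathway and marker lists and the tests were chosen with earlier results of these data known. Named genes are the 10, Nsd1, at most the 3 largest called changes per list and comparison, with levels for some of them, and the 5 closest correlates of Dusp9 and of Fgf8. Some genes that this rule takes are not reported here. Fgf6, Fgf16, Fgf20, Fgf21 and Spry3 were not measured. GENCODE M21 (GRCm38, not the mm39 build of the authors) gave lengths, positions and overlaps, and RefSeq gave promoters. Figures were drawn with matplotlib 3.10.9 in Python 3.11.15. The alternatives were a fit of the compared libraries alone, a replicate block, a filter at a mean normalized count of 10, limma-voom on recovered counts, centring on the median, either clone alone as KO, an adjusted p under 0.05 with no fold threshold, and each library left out in turn.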

Additional observations from a re-analysis of the deposited data

Results flagged for a closer look

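For 4 of the 10 genes every KO library lay on one side of both WT libraries at one day and on the other side at another day, beside 13.6% of all 20703 genes. The difference between the days was not tested, and the values are log2 fold changes of KO minus WT on the VST scale. Spry4 had 0.21 at day 0 and −0.30 at day 4. Fgf4 had −0.27 at day 0 and 1.16 at day 4. Fgf8 had 0.35 at day 2 and −1.26 at day 4. Fgf15 had −0.23 at day 0, −0.73 at day 2 and 0.10 at day 4. No KO library stood apart from the other 3 of its day by Dixon's test in any of the 30 groups tested, 1 for each of the 10 genes and 3 days. Chance would flag about 1 in 20 if the libraries were independent. They came in pairs from KO-1 and KO-2, and a gap between clones widens the range that the test divides by. The test thus had little power to flag a library.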

How the results depend on the processing

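Of 700 log2 fold changes of the 10 genes under the alternatives that kept all libraries of the compared groups or 1 clone, 0 called ones reversed, 3 calls were lost and 52 were gained. Of 540 with 1 library left out, 5 calls were lost, 9 were gained and 0 called ones reversed. With the replicate block the calls among the 10 numbered 5, 5, 6 and 2 over time (WT, then KO) and 6 between genotypes at day 4, as without it. The counts at day 0 and day 2 between genotypes, which took part in the choice of Dusp9, are given here as description only. Replicate numbers were not treated as pairs in the main fit. Correlations of replicate differences between groups ranged from −0.62 to 0.64 over 36 pairs of groups, with a mean of −0.05 and 13 of them over 0.1. Limma-voom moved the calls among the 10 from 5 to 8 in WT from day 0 to day 2, from 2 to 5 in KO from day 2 to day 4 (Dusp9 among them, as description only), and from 3 to 5 for KO versus WT at day 2, where it called 19.5%, 10.3% and 23.9% of all genes. With an adjusted p under 0.05 and no fold threshold the calls over time were 10 and 10 in WT and 10 and 7 in KO, those between genotypes were 6, 7 and 8, and those between clones were 0, 3 and 3. The shares of all genes were 40.6% and 42.3% in WT, 35.7% and 23.7% in KO, 29.7%, 46.0% and 37.2% between genotypes, and 0.551%, 0.966% and 12.8% between clones. With each library left out, the calls ranged from 5 to 6 in both WT steps, from 5 to 6 and 2 to 3 in the KO steps, from 2 to 2, 3 to 4 and 6 to 6 between genotypes, and from 0 to 0 between clones.

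Of the 74 pathway genes, limma-voom called 27 and 28 in the WT steps (14 and 19 in the main comparison), 20 and 15 in the KO steps (7 and 7), and 17, 31 and 27 between genotypes (7, 12 and 18), beside 19.5%, 24.1%, 16.3%, 10.3%, 13.3%, 23.9% and 23.9% of all genes. With no fold threshold these were 43, 50, 49, 34, 35, 45 and 36, beside the shares of all genes given above. With each library left out they ranged from 13 to 15 and 19 to 20 in WT, from 6 to 7 and 7 to 8 in KO, and from 6 to 7, 12 to 13 and 16 to 19 between genotypes. After centring on the median, 6 of the 74 were called between genotypes at day 0, where 551 of all 20703 genes were called.

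The calls that rest on single libraries lie near the fold threshold. Etv4 in KO from day 0 to day 2 was between −0.57 and −0.55 without either KO-2 day 0 library or either KO-1 day 2 library, −0.57 after centring and −0.54 with KO-2 alone, where Spry4 had −0.46. Fgf15 in WT over that step had 0.58 without replicate 1 of WT day 2 and was no longer called. Over all genes the median was −0.14 on the log2 scale by limma-voom and −0.02 in limma for KO versus WT at day 2, and −0.17 and −0.02 for WT from day 2 to day 4. The share of called genes that were higher was 66.4% in KO at day 0 and 48.4% by limma-voom, 62.9% at day 2 with 73.9% after centring and 43.2% by limma-voom, and 64.9% in WT from day 2 to day 4 with 50.8% by limma-voom. Weakly expressed genes such as Fgf15 and early Fgf8 are limited by depth, least favourably in the shallow WT day 2 libraries.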
